A study of Mus musculus with 6 samples.

Results

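The most deeply read CpGs of these libraries were examined, namely the nuclear CpGs with at least 1000 reads in each of the 6 libraries. They were chosen by their read counts, so their reads are given as a description with no test, and their levels were not used. Of 1531630 CpGs with a read in any library, 367 met this rule, and 957669 nuclear CpGs had at least 10 reads in each library and were tested. CpGs within 1 kb of each other were joined, which gave 18 loci on 8 chromosomes and scaffolds. One locus, a part of a 45S ribosomal DNA (rDNA) repeat that is called the 45S unit here, held 268 of the CpGs, and the other 17 loci held 99. The lowest read numbers among the CpGs just inside the rule were 1035, 1038 and 1043, and those just outside were 960, 943 and 934.

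The libraries were made by reduced representation bisulfite sequencing (RRBS), in which DNA is cut with the enzyme MspI at CCGG, short fragments are selected, and a methylated cytosine is still read as C after bisulfite treatment. C-iPSCs were induced from fibroblasts with small molecules, among them VPA, CHIR99021, tranylcypromine, forskolin, AM580, EPZ004777, DZNep, 5-aza-dC and SGC0946. 4F-iPSCs were induced with retroviral Oct4, Sox2, Klf4 and c-Myc, and mESCs were the embryonic stem cell line E14. Each cell type had 2 libraries, and no label says that the libraries came from separate cultures, so their spread may be technical. Both kinds of iPSCs came from OG2 fibroblasts, which carry an Oct4-GFP reporter and were derived with mice of the strains 129S4/SvJaeJ, CBA/CaJ and C57BL/6J, whereas the mESCs do not share that origin. The iPSCs were at passages 5 to 10 and the mESCs at passages 20 to 30, so passage and strain cannot be told apart from the cell type. All cells were male and were kept in LIF at 1000 U/ml, 3 µM CHIR99021 and 1 µM PD0325901, and fibroblast feeders were removed on gelatin before collection. The libraries held between 53694199 and 96534037 reads at CpGs, and counting error was small at the chosen CpGs. At 1000 reads, a level of 5.00% has a 95% Wilson interval from 3.81 to 6.53, which covers counting error only.

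A CpG gathers so many reads when near-identical copies of a sequence are read on 1 place of the genome assembly, or when an MspI fragment is amplified well. The level of such a CpG is an average over all copies and all cells. The 45S rDNA is a tandem repeat on several chromosomes that encodes the ribosomal RNAs, and cells keep a part of its copies silent, with DNA methylation as one of the marks of silent copies. L1 elements are retrotransposons whose promoter is built of repeated units, and IAPs are retroviral elements of the mouse genome, and both are known to be repressed through DNA methylation. The minor satellite is the centromeric repeat of mouse chromosomes, and some of its copies carry the CENP-B box, the binding sequence of the centromere protein CENP-B. Fewer copies, fewer cells and fewer reads per copy cannot be told apart in these libraries.

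The sequences that carry the results are shown first, on the plus strand of GRCm38, with the CpGs that met the rule in capitals. The stretch of the 45S unit with the most such CpGs, 41 in 289 bases, lies before the 18S gene at chr17:39845694-39845982. The unit as a whole overlaps exons of the noncoding genes AY036118, Gm26917, Gm42418 and CT010467.1.
45S unit: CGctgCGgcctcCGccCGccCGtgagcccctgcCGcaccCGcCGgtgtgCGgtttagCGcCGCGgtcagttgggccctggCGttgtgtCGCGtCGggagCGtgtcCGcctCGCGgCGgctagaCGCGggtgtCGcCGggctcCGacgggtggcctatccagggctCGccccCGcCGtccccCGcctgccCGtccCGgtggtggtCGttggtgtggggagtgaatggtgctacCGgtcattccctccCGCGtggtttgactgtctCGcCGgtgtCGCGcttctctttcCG
Outside the unit, the CpG-rich loci with the most reads, the largest level differences or the most extreme read ratios lie in an intron of Zc3h7a at chr16:11144050-11144122, 13120 bp from Gm48679 at chr10:11492101-11492176, 20075 bp from Gm37350 at chr3:5860674-5860757, and in an intron of Taco1 at chr11:106066787-106066817.
Zc3h7a intron: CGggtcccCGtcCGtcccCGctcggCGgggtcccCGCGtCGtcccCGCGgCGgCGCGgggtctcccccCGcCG
near Gm48679: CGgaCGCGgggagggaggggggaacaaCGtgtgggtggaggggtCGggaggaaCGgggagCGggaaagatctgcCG
near Gm37350: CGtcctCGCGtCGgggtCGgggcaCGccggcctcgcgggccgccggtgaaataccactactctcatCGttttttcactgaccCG
Taco1 intron: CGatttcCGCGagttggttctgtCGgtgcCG
A locus at chr11:3193348-3193597 spans the annotated start of Sfi1, with part of it in the first exon and 5′ UTR of Sfi1 and part in an exon of the noncoding gene Gm12735, and all of it lies in an intron of Drg1. The stretch directly upstream of the start of Sfi1, chr11:3193465-3193597, is shown, because this locus had the largest level difference.
upstream of Sfi1: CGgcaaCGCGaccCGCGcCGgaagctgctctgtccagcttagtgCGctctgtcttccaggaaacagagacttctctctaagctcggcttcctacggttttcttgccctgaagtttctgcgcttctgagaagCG
A pair of CpG-dense stretches of 41 bases at chr1:7236986-7237026 and chr1:7334669-7334709 matched the opposite strand of the locus in an intron of Xkr4 at chr1:3344649-3344912 over their whole length, with 38 and 37 of 41 bases equal.
near Gm23274, L1-like: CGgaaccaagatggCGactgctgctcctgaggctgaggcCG
near Gm26901, L1-like: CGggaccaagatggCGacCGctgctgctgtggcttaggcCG
Xkr4 intron, L1-like: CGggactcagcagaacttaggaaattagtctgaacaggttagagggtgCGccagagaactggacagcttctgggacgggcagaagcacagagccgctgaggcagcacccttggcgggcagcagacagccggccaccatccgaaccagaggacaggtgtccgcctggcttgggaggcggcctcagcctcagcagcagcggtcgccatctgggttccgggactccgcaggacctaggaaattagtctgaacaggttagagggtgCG
The loci at chr1:5810057-5810121, chr1:8157461-8157553 and chr1:72131310-72131352 also shared one sequence, since the first and the third matched the opposite strand of the second at 60 of 62 and 39 of 43 bases.
near Gm37429, IAP-like: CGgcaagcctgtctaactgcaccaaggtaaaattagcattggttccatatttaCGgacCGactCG
near Sntg1, IAP-like: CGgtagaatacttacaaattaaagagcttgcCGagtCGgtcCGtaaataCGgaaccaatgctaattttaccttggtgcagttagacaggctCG
near Gm4319, IAP-like: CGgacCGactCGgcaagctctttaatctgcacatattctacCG
The last locus lies 43 bp from Gm10800 at chr2:98666262-98666504.
minor satellite: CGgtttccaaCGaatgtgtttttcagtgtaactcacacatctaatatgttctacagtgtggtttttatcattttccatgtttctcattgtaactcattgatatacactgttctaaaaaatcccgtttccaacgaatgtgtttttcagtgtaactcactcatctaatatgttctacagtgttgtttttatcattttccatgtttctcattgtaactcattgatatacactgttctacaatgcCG
No repeat annotation was used. The names L1-like and IAP-like come from recognising the printed sequences, but loci were put in these groups by their number of copies in the assembly. This holds also for the locus in an intron of A830018L16Rik at chr1:11720563-11720575, which is L1-like by that number and is not printed. The minor satellite was named by a match to the CENP-B box. The L1-like loci had between 4664 and 10344 copies in the assembly with at least 80% identity over at least 80 bases, and the IAP-like loci had between 1693 and 1802. These ranges reflect the grouping and do not bear on the names. All 7 of these loci lie on chromosome 1, although the authors kept only uniquely mapped pairs. Whether their reads come from the named places or from other copies of the sequence cannot be told apart here, so their levels are those of the reads placed there.

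The chosen CpGs were dense. The median was 22 CpGs within 100 bases to each side, against 14 at all other CpGs tested, and the median GC content was 68.7% against 63.7%. Of them, 10.1% were soft-masked as repeats in the assembly, against 12.9% of the others, and 9.54% had an exact copy of their 50 bases elsewhere, against 4.43%. They held between 7.73% and 9.13% of the reads of a library. The 45S unit took 2.24% to 2.80% and the 3 CpGs of the minor satellite 4.26% to 6.0%.

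The mean level over the 367 CpGs was alike in mESCs and C-iPSCs and higher in 4F-iPSCs. It was 8.99% and 9.29% in the mESC libraries, 9.76% and 9.30% in the C-iPSC libraries, and 24.6% and 25.8% in the 4F-iPSC libraries. Over all CpGs tested the means were 20.1% and 21.9%, 25.1% and 29.6%, and 31.7% and 33.2%, so that there the C-iPSCs lay between the others. The 4F-iPSCs exceeded the mESCs by 16.1 points and the C-iPSCs by 15.7 points, which is far more than the spread between replicates, whereas the C-iPSCs exceeded the mESCs by 0.388 points. In each comparison the two-sided exact permutation p was 0.33, the smallest that 2 libraries against 2 allow. The small C-iPSC difference depends on the CpGs taken and on their weight, and it was 1.84 points over CpGs with at least 500 reads, 2.03 points with each locus counted once, and 2.5 points when all methylated reads were divided by all reads.

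**Figure D1:**
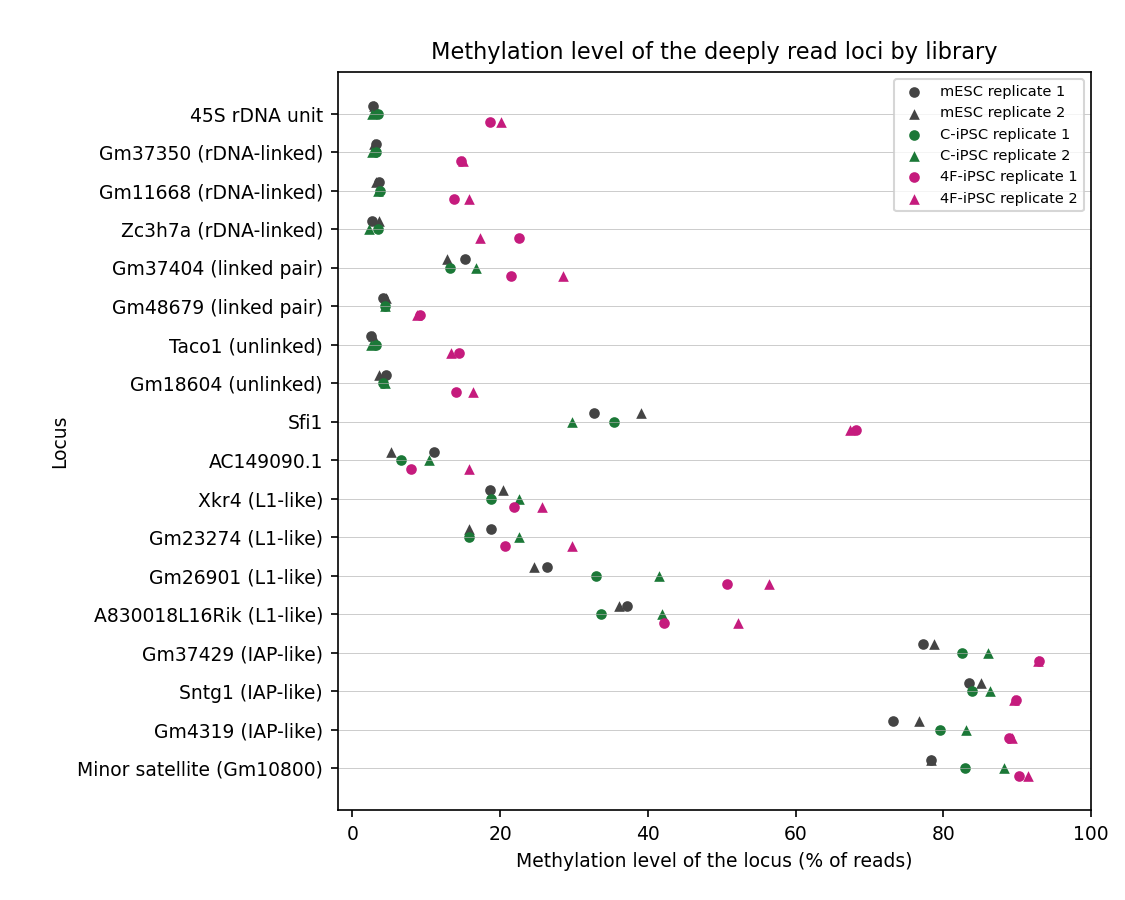
Methylation level of each of the 18 loci (x axis, %) in the 6 libraries, with 1 row for each locus, ordered by kind of sequence, and 1 point for each library. The 4F-iPSC points lie above both mESC points at 17 of 18 loci, and the mESC and C-iPSC points overlap at 14 of 18.

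By locus, both 4F-iPSC libraries lay above both mESC libraries at 17 of 18 loci and above both C-iPSC libraries at 15 of 18, and nowhere below. Both C-iPSC libraries lay above both mESC libraries at 4 loci, below at none, and overlapped at 14. Without CpGs in CCGG, the site that MspI cuts, 17 loci remained, with 4F-iPSCs above mESCs and above C-iPSCs at all 17 and C-iPSCs above mESCs at 6. The calls that differed were those of the loci near Gm23274, in Xkr4 and in AC149090.1, and they are given with these loci. By CpG, 359 of the 367 were higher without overlap in 4F-iPSCs than in mESCs, where 44.7% of all CpGs tested were. Against C-iPSCs, 357 were higher in 4F-iPSCs, beside 31.3% of all CpGs tested. In C-iPSCs, 22 were higher than in mESCs and 3 were lower, whereas 32.7% of all CpGs tested were higher and 4.26% lower. The shares of all CpGs, here and below, were not matched for depth. The median of the mean reads was 6704.5 at the 367 and 64.7 at the other CpGs tested. Counting error is larger at fewer reads. Most of the 367 also lie together in the 45S unit, so they are not independent of each other. The part of depth in the contrast between the shares was not tested.

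A test that uses the replicates, limma on arcsine-transformed levels with Benjamini-Hochberg adjustment over all CpGs tested, called 302 of the 367 higher in 4F-iPSCs than in mESCs and none lower, beside 25.1% of all CpGs called higher. These were 238 of 268 CpGs of the 45S unit, 26 of 29 at the 3 small loci linked to rDNA, 7 of 11 at the 2 small loci without links, 0 of 10 at a linked pair of small loci, 17 of 17 at Sfi1, 0 of 3 at AC149090.1, 9 of 14 at the IAP-like loci, 5 of 12 at the L1-like loci and 0 of 3 at the minor satellite. The count of calls changed little with 1 C-iPSC library left out. It was lower with 1 mESC or 4F-iPSC library left out, where the lone library of a cell type is assumed to vary like the others. It was 21 without 4F-iPSC replicate 1, which is 5.72% of the 367 beside 7.12% of all CpGs tested, so that the share was then not above that of all CpGs. It was 29, or 7.90% beside 5.65%, without mESC replicate 1, 46, or 12.5% beside 7.5%, without 4F-iPSC replicate 2, and 168, or 45.8% beside 15.9%, without mESC replicate 2. With each of these 4 libraries left out, the mean difference was between 15.4 and 16.7 points. With all libraries, 332 of the 367 had an unadjusted limma p under 0.05, beside 328225 of the 957669 CpGs tested. Between 4F-iPSCs and C-iPSCs, limma called 0, with a lowest adjusted p of 0.053. At an unadjusted limma p under 0.05 there were 327, beside 141908 of the 957669 CpGs tested. In that comparison limma called 0.000731% of all CpGs higher. A logit scale called 296 of the 367, beside 1.86% of all CpGs, and a quasi-binomial model 336, beside 10.3%. For C-iPSCs against mESCs limma called 0, beside 1.2% of all CpGs called higher. At an unadjusted limma p under 0.05 there were 7, beside 202216 of the 957669 CpGs tested. The logit scale also called 0 there, beside 3.06% of all CpGs, and the quasi-binomial model 4, beside 15.5%.

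Strong calls, with the thresholds of the study's methods, need a level difference above 33.3 points and a Fisher's exact p under 0.05 on summed reads, which ignores the replicates. They were made over CpGs with at least 10 summed reads in both cell types, whereas the study's methods ask for such coverage in all samples, so the shares of all CpGs given with them are over 1128256 CpGs for 4F-iPSCs and mESCs, 1167248 for 4F-iPSCs and C-iPSCs and 1111063 for C-iPSCs and mESCs, and over fewer with 1 library left out. Between 4F-iPSCs and mESCs, 8 of the 367 were strong and higher, 7 at Sfi1 and 1 in the 45S unit, beside 14.4% of all CpGs. Leaving out 4F-iPSC replicate 1 gave 19, beside 14.6%, and leaving out mESC replicate 2 gave 14, beside 17.1%. Between 4F-iPSCs and C-iPSCs 12 were strong, all at Sfi1, beside 1.44%, with 24 without C-iPSC replicate 1, beside 0.925%, and 20 without 4F-iPSC replicate 1, beside 1.67%. Between C-iPSCs and mESCs there were 0, beside 2.91%. With 20 points required, 69 of the 367 were called between 4F-iPSCs and mESCs, a smaller share than the 28% of all CpGs, and 63 between 4F-iPSCs and C-iPSCs, a larger share than 6.96%. With 50 points required there were 0 in both, beside 2.62% and 0.179%.

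The 45S unit as placed here spans 5697 bp at chr17:39843014-39848710. It holds 3340 bp before the 18S ribosomal RNA gene of the RefSeq annotation, the gene itself and 508 bp after it, by position on the plus strand. It is thus only a part of the 45S repeat. Its level was 2.85% and 2.9% in the mESC libraries, 3.44% and 2.64% in the C-iPSC libraries, and 18.6% and 20.2% in the 4F-iPSC libraries. Every one of its 268 CpGs was higher in both 4F-iPSC libraries than in all of the other 4. The difference between 4F-iPSCs and mESCs had a median of 15.3 points, a lowest value of 3.72 and a highest value of 34.3. By the mean of the cell type, levels under 5% were found at 225 of the 268 CpGs for the mESC libraries, at 225 for the C-iPSC libraries and at 2 for the 4F-iPSC libraries.

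The difference was present before, in and after the 18S gene. Before the 18S gene, 182 CpGs had a median difference of 14.8 points between 4F-iPSCs and mESCs. In the 18S gene itself, at chr17:39846354-39848202, the median was 15.9 points over 39 CpGs, and after it, 13.6 points over 47 CpGs. The 41 CpGs of the unit with fewer reads than the rule required were not used by the rule, although they come from the same libraries and the same repeat. Their mean level was 2.80% and 3.04% in the mESC libraries, 3.63% and 3.12% in the C-iPSC libraries, and 18.8% and 17.99% in the 4F-iPSC libraries, and all 41 were higher without overlap in 4F-iPSCs than in either other cell type.

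Within the unit, CpGs in CCGG had higher levels in all cell types. These CpGs lie at the ends of the MspI fragments, where library preparation fills in bases, and how ends were trimmed is not given in the sources used here, so their levels may not be those of the cells. The 43 of them averaged 12.1%, 12.4% and 28.6% in mESCs, C-iPSCs and 4F-iPSCs, respectively. The 225 CpGs outside CCGG averaged 1.47%, 1.64% and 17.7%. The difference between 4F-iPSCs and mESCs was nearly the same for both, 16.5 and 16.3 points. The same offset is present away from the repeats, since the 13549 other CpG-dense CpGs in CCGG with at least 50 reads had a median of 11.7% in mESCs and the 139318 outside CCGG had 0.365%. Without CpGs in CCGG the 367 became 298, and the mean difference between 4F-iPSCs and mESCs was 16.3 points. The level of the unit fell from 2.87% to 1.46% in mESCs, from 3.04% to 1.56% in C-iPSCs and from 19.4% to 18.02% in 4F-iPSCs, so the CpGs in CCGG made up much of the low levels and little of the difference.

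The MspI fragments of the unit differed more than the replicates did. Over 35 fragments of 33 to 158 bp, and over CpGs outside CCGG, the mean level in 4F-iPSCs ran from 6.22% to 33.3%, with a median of 15.5%, whereas no fragment exceeded 2.33% in mESCs or 2.86% in C-iPSCs. The median gap between the 4F-iPSC replicates was 1.69 points. The highest fragment began 2722 bp into the unit, at chr17:39845736-39845828, inside the stretch printed above. Its 16 CpGs averaged 1.86% and 2.69% in the mESC libraries, 4.29% and 0.989% in the C-iPSC libraries, and 32.2% and 34.5% in the 4F-iPSC libraries.

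The fragment directly before it, at chr17:39845646-39845735, was the lowest. Its 11 CpGs averaged 10.2% and 2.21% in the 4F-iPSC libraries, the largest replicate gap of all fragments at 8.03 points, and 0.83% and 1.10% in the mESC libraries. This place as the lowest rests on 4F-iPSC replicate 2, because in replicate 1 the 1 CpG of the fragment at chr17:39843136-39843168 was lower, at 9.70%, whereas the highest fragment was the highest in both replicates. A fragment at chr17:39844548-39844658 was the only other one above 25% in 4F-iPSCs, with 28.7% and 33.1% over 15 CpGs. These 3 fragments also differed in reads. The ratio of reads in 4F-iPSCs to those in C-iPSCs was 1.37 in the highest fragment, 1.66 in the one at chr17:39844548-39844658 and 0.514 in the lowest. Against mESCs these ratios were 1.26, 1.06 and 0.79. Over all 35 fragments, Spearman's coefficient between the level difference and the read ratio was 0.612 for 4F-iPSCs and C-iPSCs, 0.293 for 4F-iPSCs and mESCs, and -0.206 for C-iPSCs and mESCs. This is a description, because the fragments share their libraries and lie in 1 repeat.

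The unit was then set beside other CpG-dense CpGs with low levels. Of CpGs under 10% in mESCs with at least 15 CpGs within 100 bases to each side, 189 of 214 in the unit were over 10 points higher in 4F-iPSCs, which is 88.3%. Of the other deeply read CpGs 29 of 37 were, and of the 393168 remaining CpGs 5346 were, which is 1.36%. In C-iPSCs, 0 of 214 and 0 of 37 were over 10 points above mESCs, beside 0.531% of the remaining CpGs.

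Of the small CpG-rich loci, 3 have copies near an 18S-like copy elsewhere in the assembly, directly or through one another, and are called rDNA-linked. The name is a weak one, because some of these matches are below the 80% identity used for copies above. Copies of the loci near Gm37350 and in Zc3h7a, at 72.7% and 79.4% identity, lie on chromosome 9, at 1973 and 2531 bp from a match to the 18S gene of 76.7% identity, and a copy of the third, near Gm11668, lies 1227 bp from a Gm37350 copy on chromosome 17. The locus in Zc3h7a, which encodes a zinc finger protein, had levels of 2.64% and 3.56% in the mESC libraries, 3.49% and 2.22% in the C-iPSC libraries, and 22.5% and 17.3% in the 4F-iPSC libraries. All of its 15 CpGs were called higher in 4F-iPSCs than in mESCs by limma. The locus near Gm37350 had 3.22% and 3.00%, 3.26% and 2.62%, and 14.7% and 15.0% in the same order. The locus at chr11:109011776-109011871, near Gm11668, had 3.58% and 3.23%, 3.76% and 3.54%, and 13.7% and 15.9%.

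A pair of loci on chromosomes 3 and 10 lay side by side in their copies on chromosomes 2, 3 and 5. The one near Gm48679 had 4.20% and 4.60% in the mESC libraries, 4.46% and 4.44% in the C-iPSC libraries, and 9.17% and 8.73% in the 4F-iPSC libraries, the smallest difference of these loci. The one at chr3:62159065-62159130, near Gm37404, had 15.2% and 12.8%, 13.3% and 16.8%, and 21.4% and 28.5%, with both of its CpGs in CCGG, so that no level without CCGG can be given for it. Neither had a CpG called by limma. Of the 2 loci without such links, the one in Taco1 had 2.58% and 2.84%, 3.18% and 2.47%, and 14.5% and 13.4%, and the one at chr17:36231275-36231328, near Gm18604, had 4.54% and 3.59%, 4.09% and 4.41%, and 14.1% and 16.3%. Taco1 encodes a translational activator of a mitochondrial protein. Over these 7 small loci the 4F-iPSC difference from mESCs was between 4.55 and 16.8 points, and the C-iPSC difference was between -0.248 and 1.03 points. Without CpGs in CCGG, the mESC levels of the 6 loci left were between 0.856% and 2.83%, against 2.71% and 4.40% with them, and the 4F-iPSC levels between 7.08% and 19.1%, against 8.95% and 19.9%.

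At Sfi1, which encodes a centrin-binding protein and is known to have extra copies in mouse genomes, the level was 32.8% and 39.0% in the mESC libraries, 35.5% and 29.7% in the C-iPSC libraries, and 68.2% and 67.4% in the 4F-iPSC libraries. The 4F-iPSCs lay above both other cell types with no overlap, by 31.9 points over mESCs and by 35.2 points over C-iPSCs, and the mESC and C-iPSC libraries overlapped. Among its 17 CpGs the 4F-iPSC level ran from 39.2% to 83.8%, and each was higher in 4F-iPSCs than in either other cell type in all libraries. Reads in overlapping genes cannot be assigned to one of them. Reads, which chose the CpGs, were also higher here. Per 1000000 reads of the library at CpGs (RPM), the locus had 634 and 765 in the mESC libraries, 709 and 722 in the C-iPSC libraries, and 973 and 921 in the 4F-iPSC libraries, which is a ratio of 1.35 to mESCs and 1.32 to C-iPSCs with no overlap in either. The other 25 tested CpGs of Sfi1 and 5 kb to each side, which the rule did not choose, differed from these. Their mean level was 55.1% and 63.8% in the mESC libraries, 71.8% and 80.4% in the C-iPSC libraries, and 90.5% and 90.1% in the 4F-iPSC libraries, so all 3 cell types were apart. Together they had 58.6 and 55.5 RPM, 44.0 and 41.4 RPM, and 57.2 and 54.2 RPM in the same order, with a ratio of 4F-iPSCs of 0.975 to mESCs and 1.3 to C-iPSCs.

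The other locus in gene sequence, an exon with a UTR of AC149090.1 on an unplaced scaffold, was the exception in 4F-iPSCs. It had 11% and 5.30% in the mESC libraries, 6.57% and 10.4% in the C-iPSC libraries, and 7.98% and 15.8% in the 4F-iPSC libraries, so all cell types overlapped. Of its 3 CpGs, 2 lie in CCGG, and the third was at 0.959% and 0.543%, 1.66% and 1.28%, and 1.86% and 2.25%. At this CpG alone, all 3 cell types were apart.

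The L1-like loci had intermediate levels and differed in how far the cell types lay apart. The locus near Gm26901 had the widest range, from 26.4% and 24.6% in mESCs over 32.9% and 41.5% in C-iPSCs to 50.7% and 56.4% in 4F-iPSCs, and all 3 cell types were apart. Limma called 3 of its 4 CpGs higher in 4F-iPSCs than in mESCs. The locus near Gm23274, with 36 of 41 bases equal, had 18.8% and 15.9%, 15.9% and 22.6%, and 20.6% and 29.7%, so that only the 4F-iPSCs and mESCs were apart. Without its 1 CpG in CCGG it had 9.72% and 11.1%, 13.1% and 16.4%, and 18.1% and 21.4%, and all 3 cell types were apart. The locus in Xkr4 had 18.6% and 20.4%, 18.8% and 22.6%, and 21.9% and 25.6%. Without its 1 CpG in CCGG it had 7.95% and 12.1%, 11.6% and 13.2%, and 14.8% and 14.7%, and the 4F-iPSCs were then apart from the C-iPSCs too. The locus in A830018L16Rik had 37.1% and 36.1%, 33.6% and 42.0%, and 42.2% and 52.1%. Limma called no CpG of these last 2 loci.

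The IAP-like loci were high everywhere and highest in 4F-iPSCs. The locus near Gm37429 had 77.3% and 78.7% in the mESC libraries, 82.4% and 86.1% in the C-iPSC libraries, and 92.9% and 92.8% in the 4F-iPSC libraries. The locus near Gm4319 had 73.2% and 76.7%, 79.5% and 83.1%, and 88.9% and 89.2%. In both loci all 3 cell types were apart. The locus near Sntg1 had 83.5% and 85.1%, 83.9% and 86.3%, and 89.8% and 89.5%, and its mESC and C-iPSC libraries overlapped. Among its 6 CpGs, the one at chr1:8157510 had 68.5%, 67.6% and 69.2% in mESCs, C-iPSCs and 4F-iPSCs and the one at chr1:8157552 had 99.8%, 99.7% and 99.8%, so these CpGs barely differed between the cell types.

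Copies of the same families elsewhere, which had too few reads for the rule, gave the order mESC, C-iPSC, 4F-iPSC. At 13661 CpGs of other L1-like copies the mean level was 34.6% and 36.6% in the mESC libraries, 37.8% and 44.3% in the C-iPSC libraries, and 47.0% and 51% in the 4F-iPSC libraries. At 950 CpGs of other IAP-like copies it was 69.2% and 72.8%, 76.1% and 80.6%, and 89.5% and 88.9%. At 48 CpGs of 45S-like copies outside the unit it was 41.0% and 44.0%, 53.1% and 61.3%, and 70.6% and 72.3%. These copies were thus far more methylated than the unit in every library, and the C-iPSCs were apart from the mESCs there but not in the unit. Other copies of small loci described above, the rDNA-linked ones and the linked pair, did the same. Their means in mESCs, C-iPSCs and 4F-iPSCs were 27.1%, 34.6% and 42.2% over 78 CpGs, and 21.1%, 25.9% and 33.9% over 46 CpGs.

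The minor satellite had the most reads of all loci, between 42586 and 59991 RPM at 3 CpGs. Its level was 78.3% and 78.3% in the mESC libraries, 82.9% and 88.2% in the C-iPSC libraries, and 90.2% and 91.5% in the 4F-iPSC libraries, with no overlap between any 2 cell types. Limma, whose prior spread follows depth, called none of its CpGs, with adjusted p between 0.861 and 0.874 for 4F-iPSCs against mESCs. Without the depth trend it called 2 of 3, beside 24.6% of all CpGs, with adjusted p between 0.0184 and 0.118. The CENP-B box was searched by its fixed bases on both strands, once as it is and once in a form that ends in CCGG, the site of MspI. The 443 bases around the locus held 1 match of each, against 0.191% and 0.268% of windows of that length around tested CpGs. The first form was the rule that named this locus minor satellite, so its match here was fixed by the naming. The match of the second form lies at the start of the printed sequence and holds 2 of the 3 CpGs, and no other locus held this second form. A match describes the letters and is no evidence of binding.

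**Figure D2:**
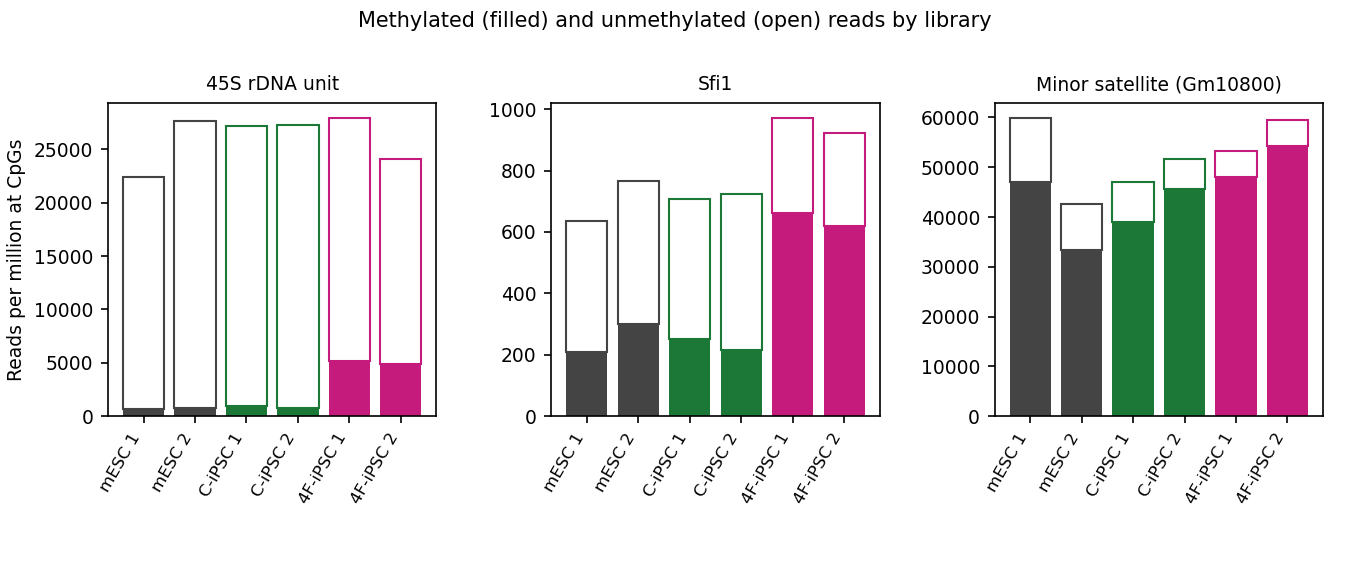
Methylated (filled) and unmethylated (open) reads per 1000000 reads of the library (y axis) at the 45S unit, Sfi1 and the minor satellite, with 1 stacked bar for each of the 6 libraries. At the 45S unit the bars have similar heights, and the filled part is 5203 and 4868 in the 4F-iPSC libraries against 638 and 803 in the mESC libraries.

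The reads were then set against the levels, because more copies of a sequence are expected to give more reads. At the 45S unit, the RPM were 22392 and 27700 in the mESC libraries, 27205 and 27316 in the C-iPSC libraries, and 27985 and 24106 in the 4F-iPSC libraries, and all cell types overlapped. The ratio of 4F-iPSCs to mESCs was 1.04 and to C-iPSCs 0.955. Methylated RPM were 638 and 803 in the mESC libraries, 937 and 721 in the C-iPSC libraries, and 5203 and 4868 in the 4F-iPSC libraries, while unmethylated RPM were 21754 and 26897, 26268 and 26595, and 22782 and 19238. Methylated reads of 4F-iPSCs thus lay above those of both other cell types, which overlapped with each other, and unmethylated reads overlapped between 4F-iPSCs and mESCs but were lower in both 4F-iPSC libraries than in both C-iPSC libraries.

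For each locus a bound was computed, the level that would result if all reads gained were methylated, or all reads lost were unmethylated, and the other reads kept their level. The 4F-iPSC level lay above this bound from the mean reads at 18 of 18 loci against mESCs and at 16 of 18 against C-iPSCs. The C-iPSC level lay above the bound from mESCs at 2 of 18 loci, and its mean level was higher at 15. At the 45S unit the bound from mESCs was 6.60% against a level of 19.4%, and at Sfi1 it was 52.6% against 67.8%. A second bound was taken from the library pair with the highest read ratio. It was higher where mean reads had risen, but could be lower where they had fallen. Near Gm37429 the bound of 4F-iPSCs against mESCs went from 87.7% to 81.5%. This pair is therefore not the strictest choice at every locus. The 4F-iPSC level lay above the second bound at 7 of 18 loci against mESCs and 12 of 18 against C-iPSCs. The C-iPSC level did at 3 of 18 against mESCs. At the 45S unit that pair had a ratio of 1.25 and a bound of 22.3% from mESCs, above the level of 19.4%, whereas the bound from C-iPSCs was 5.74%. At Sfi1 the bounds were 58.2% and 50.9%, both below the level. At the minor satellite they were 84.5% and 88.6%, both below the level of 90.9%.

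**Figure D3:**
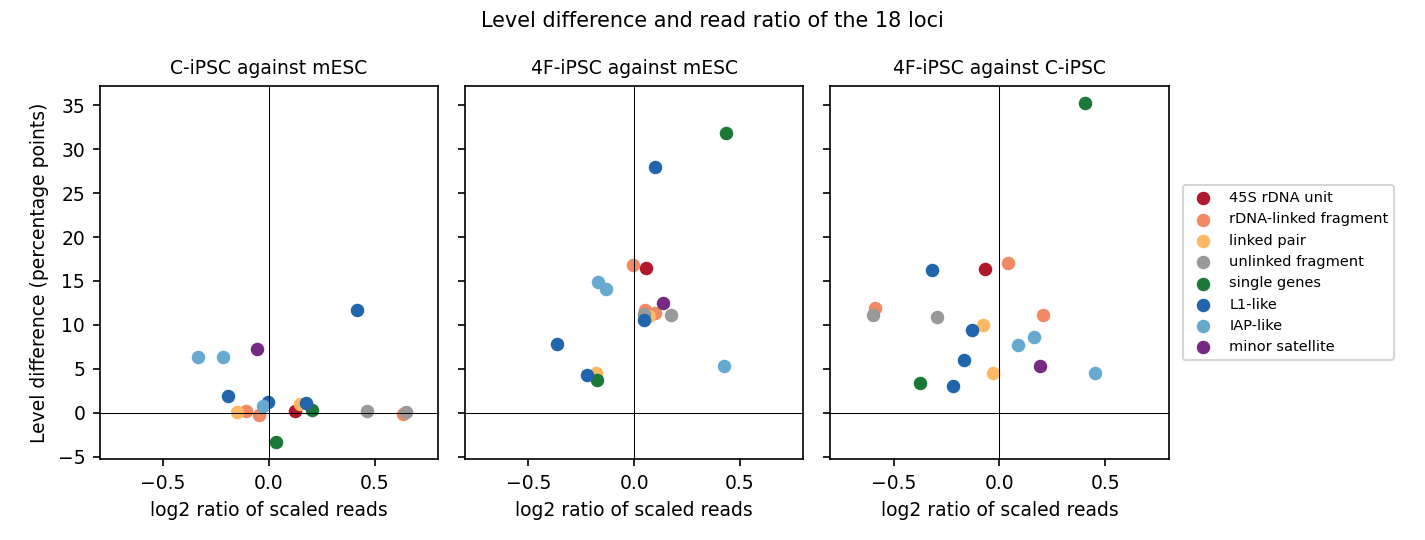
Level difference between cell types (y axis, percentage points) against the log2 ratio of scaled reads (x axis) for the 18 loci, 1 panel for each comparison. Differences of 4F-iPSCs are above 0 at all loci on both sides of a log2 read ratio of 0.

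Over the 18 loci, Spearman's coefficient between the level difference and the log2 read ratio was 0.43 for 4F-iPSCs and mESCs, 0.02 for 4F-iPSCs and C-iPSCs, and -0.32 for C-iPSCs and mESCs. These are descriptions, since loci share libraries and some share sequence. When 1 library was left out they lay between 0.20 and 0.31, between -0.13 and 0.04, and between -0.48 and -0.09, in the same order. Over single pairs of libraries they lay between -0.09 and 0.27, between -0.22 and 0.17, and between -0.42 and 0.13, so the sign was not the same in every pair. Over the 10 loci that are not L1-like, IAP-like or satellite they were 0.44, 0.47 and 0.16. Reads of the libraries were apart at few loci. Against mESCs, 4F-iPSCs had more reads at 2 loci, Sfi1 and the locus near Sntg1, and fewer at 1, near Gm23274. Against C-iPSCs, 4F-iPSCs had more reads at 3 loci and fewer at 5, and C-iPSCs had fewer reads than mESCs at 1.

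Reads also moved with the length of the MspI fragment. On fragments of up to 40 bp, the median ratio of mESC replicate 1 to mESC replicate 2 was 0.322 at the chosen CpGs and 0.395 at other CpGs. On fragments of 70 to 110 bp it was 1.29 and 1.23. The ratio of 4F-iPSCs to C-iPSCs on the shortest fragments was 0.660 and 0.687, and on those of 110 to 170 bp 1.27 and 1.14. The loci near Gm37350 and in Taco1, on fragments of 33 and 38 bp, had the largest read ratios of C-iPSCs to mESCs, 1.55 and 1.57, but mESC replicate 1 alone was low there, with 183 RPM near Gm37350 against 620 in mESC replicate 2. The part of fragment length in the other read ratios was not tested.

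**Figure D4:**
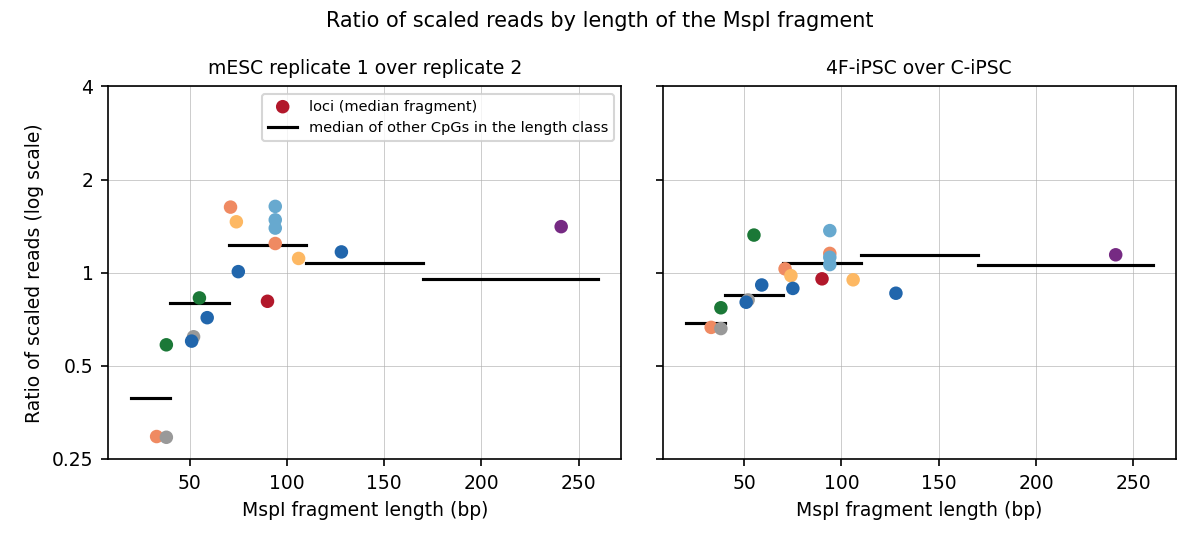
Ratio of scaled reads (y axis, log scale) against the length of the MspI fragment in bp (x axis), with 1 point for each locus, colored by kind of sequence, and lines for the median of other CpGs in each class of length. The left panel shows mESC replicate 1 over replicate 2 and the right panel 4F-iPSCs over C-iPSCs, and the loci on the shortest fragments lie lowest in both.

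Exons of the genes introduced into the 4F-iPSCs were also read. At 3 exon CpGs of Pou5f1, which encodes Oct4, the mESC libraries had 1.52 and 1.55 RPM, the C-iPSC libraries 12.1 and 7.38, and the 4F-iPSC libraries 11.3 and 9.5. The reads of C-iPSCs and 4F-iPSCs were 6.35 and 6.79 times those of mESCs, and both carry the Oct4-GFP reporter, which cannot be told apart from strain and passage here. The ratio of 4F-iPSCs to mESCs was 1.3 at Sox2, 1.19 at Klf4 and 1.05 at Myc. The ratio of C-iPSCs, which received none of these genes, to mESCs was 0.947 at Sox2, 1.01 at Klf4 and 1.35 at Myc, so that at Myc the C-iPSCs had the higher ratio.

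Promoters of genes expressed in pluripotent cells were read to look for fibroblasts. At 4 of the 5 with tested CpGs both 4F-iPSC libraries lay above both mESC libraries, as they did at 44.7% of all single CpGs tested. At Nanog, with 2 CpGs, the level was 0% and 3.95% in the mESC libraries, 7.14% and 6.02% in the C-iPSC libraries, and 9.77% and 9.28% in the 4F-iPSC libraries. At Pou5f1, with 5 CpGs, it was 4.62% and 9.41%, 5.57% and 6.07%, and 13% and 24.3%. At Zfp42, with 7 CpGs, it was 6.77% and 6.34%, 6.41% and 10.3%, and 9.21% and 18.3%. Dppa4 overlapped between all cell types, at 4.67% to 11.6%. At Esrrb, with 3 CpGs, the level was 17.5% and 30.9% in the mESC libraries, 40% and 37.8% in the C-iPSC libraries, and 71.9% and 60% in the 4F-iPSC libraries. No tested CpGs were in the promoters of Dppa3, Tdgf1 and Dppa5a, and the part of leftover fibroblasts in the levels given here was not tested.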

How the data were processed

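RRBS libraries of C-iPSCs, 4F-iPSCs and mESCs were used, 2 of each and 6 in all. Alignment to mm10 (BSMAP 2.90 per the submitters' processing notes), the filter for unique pairs and the calls with MOABS are the authors' own. The deposited values are raw counts at each CpG, one of reads in total and one of methylated reads, with no normalization. The deposited methylated fraction differed from the ratio of these counts by at most 0.00051 at every CpG, and the reads of the strands summed to the reads in total. The reads themselves were not analysed here.

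The chosen CpGs, the lists and the tests were set with earlier results of these data known. Levels of loci are methylated reads over reads, and reads were scaled to 1000000 reads of the library at CpGs. Loci are CpGs within 1 kb, named by the gene they lie in or the nearest gene. The loci named first and printed are the 5 with the most reads, up to 3 with the largest level difference without overlap in each comparison, and up to 2 with the largest and 2 with the smallest read ratio. Genes are from GENCODE, and copies were found with BLAST+ 2.17.0. Levels were tested with limma 3.58.1 in R 4.3.3 over CpGs with at least 10 reads in each library, all 6 libraries in one fit, adjusted by the Benjamini-Hochberg method, and with Fisher's exact test and the exact permutation test in scipy 1.17.1. Numbers of replicates are shared between cell types in the labels only, so libraries were not paired. The test scripts were tested on simulated data. Of 36 families known to be multicopy, 34 were found by gene name, 21 of them had tested CpGs, and Sfi1 held chosen CpGs. The 45S rDNA (Rn45s) has no gene of that name in the annotation and was found by its sequence. Alternatives changed the read threshold, the strand, the weight of a CpG, the model, the scale, the coverage minimum, the gap between loci and the library total, and left out each library. Leaving out CpGs in CCGG was added after seeing the data.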

Additional observations from a re-analysis of the deposited data

How the results depend on the processing

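The mean level difference of the 367 CpGs kept its direction in every alternative run, and over the libraries left out it was between 0.159 and 0.616 points for C-iPSCs minus mESCs, 15.4 and 16.7 for 4F-iPSCs minus mESCs, and 15.1 and 16.3 for 4F-iPSCs minus C-iPSCs. Without CpGs in CCGG, an alternative added after seeing the data, the differences were 0.356, 16.3 and 15.9 points, and 6, 17 and 17 of 17 loci did not overlap.

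Strong calls depended on the difference required. For 4F-iPSCs and mESCs there were 69 at 0.2 (28% of all CpGs), 0 at 0.5 (2.62%), 25 of 444 with at least 500 reads and 5 of 285 with at least 2000 (14.4%), and between 6 and 19 with 1 library left out. For 4F-iPSCs and C-iPSCs there were 63 at 0.2 (6.96%), 0 at 0.5 (0.179%), and between 8 and 24 with 1 library left out. For C-iPSCs and mESCs there was 1 of 444 with at least 500 reads (2.91%). The limma count for 4F-iPSCs and mESCs was between 21 and 304 with 1 library left out, where a lone library is assumed to vary like the others, and between 285 and 333 of the 367 then had an unadjusted p under 0.05. For 4F-iPSCs and C-iPSCs the logit scale gave 296 and the quasi-binomial model 336, and for C-iPSCs and mESCs the quasi-binomial model gave 4. The cause of these changes was not tested. A gap of 200 bp gave 28 loci, of which 27 and 24 did not overlap for 4F-iPSCs minus mESCs and minus C-iPSCs. The coefficient of levels against reads for 4F-iPSCs and mESCs was between 0.20 and 0.31 with 1 library left out, and Pearson's coefficient for 4F-iPSCs and C-iPSCs was 0.22.

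With the replicate number as a block, limma gave 0, 293 and 0 calls for C-iPSCs minus mESCs, 4F-iPSCs minus mESCs and 4F-iPSCs minus C-iPSCs, and the Cochran-Mantel-Haenszel test with the replicate block gave 0, 8 and 12 strong calls, beside 0, 302 and 0, and 0, 8 and 12, without it. Under the block limma called 25.2% of all CpGs higher in 4F-iPSCs than in mESCs. The libraries share only a number, and the deviations of same-numbered libraries correlated at -0.01, -0.23 and 0.10 over all tested CpGs, by which pairing was decided, and at -0.68, -0.60 and 0.46 over the 367, for mESCs with C-iPSCs, mESCs with 4F-iPSCs and C-iPSCs with 4F-iPSCs.

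With 2 libraries of each cell type no exact permutation test over libraries can reach 0.05, and the counts from sums of reads carry counting error only. Reads at these CpGs come from PCR without molecular identifiers.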
